A study of Homo sapiens with 6 samples.

Results

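Lysosome and V-ATPase genes were followed in PLC/PRF/5 cells, an established human hepatocellular carcinoma line, after knockdown of SLU7. SLU7 is a splicing factor of the step in which exons are joined, and the title of the series concerns aberrant mRNA transcripts when there is less of it. The cells received siRNAs against SLU7 (siSlu7, 3 libraries) or the irrelevant siRNA siGL2 as negative control (3 libraries), and RNA was taken 48 h after transfection. Both groups are the same line in the same medium, so a single cell line and a single time stand behind each value, and the number of different SLU7 siRNAs is not given in the sources used here. The genes were chosen by name among those with a protein-coding transcript: symbols of V-ATPase subunits and their accessory proteins, cathepsins, LAMP1, LAMP2 and LAMP3, and 18 further lysosomal genes. This gave 61 of 19664 coding genes, and 53 of the 61 passed the filter on low counts and were tested.

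Lysosomes are acidic organelles in which hydrolases break down proteins, lipids, glycans and glycogen. Their acid interior is made by the V-ATPase, a rotary proton pump whose soluble V1 sector splits ATP and whose membrane V0 sector carries the protons. TFEB, TFE3 and MITF are related transcription factors that bind E-box sequences in many lysosomal promoters, and in liver cells lysosomes also take part in autophagy and in the handling of lipids and glycogen.

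SLU7 itself had 9.38, 8.29 and 10.5 CPM (counts scaled to library size, normalised by TMM) in siSlu7 libraries, against 20.9, 17.1 and 18.4 CPM in siGL2 libraries, with no overlap between the groups. Its log2 fold change, siSlu7 over siGL2, was -1.0 (SE 0.18, edgeR quasi-likelihood test, Benjamini-Hochberg adjusted p = 0.0139). The adjusted p lay above 0.05 without siSlu7 replicate 1 (0.0556), without siSlu7 replicate 2 (0.0805), and with offsets for transcript length (log2 fold change -0.57, 0.152). On the TPM scale the groups overlapped, and SLU7 was not called. It had 4.12, 4.34 and 4.67 TPM in siSlu7, against 4.69, 3.46 and 5.96 TPM in siGL2, with a log2(TPM + 1) difference of -0.06 (limma adjusted p = 0.868). The median of all genes on that scale was 0.35, so SLU7 lay below the median gene there. Libraries held 5191452 to 6315740 estimated counts in siSlu7 and 7736584 to 8693977 in siGL2, and this difference in depth between the groups limits low genes in siSlu7 first. Mitochondrial and structural RNA took 44.2 to 48.2% of the counts in siSlu7 libraries and 44.4 to 46.6% in siGL2 libraries. Mitochondrial rRNA alone took 29.9 to 35.3% in siSlu7 and 16.8 to 24.1% in siGL2, without overlap, and its part in the results was not tested. In siGL2 replicate 1 and siSlu7 replicate 3 the deviations from the group means correlated across genes (r = 0.44, genes being no independent replicates), and fits without this pair, the libraries that stood apart, are given beside the results. The deviations of siSlu7 replicate 1 and siGL2 replicate 3 correlated nearly as much (r = 0.38). SLU7 ran with the labels in the libraries that stood apart, at 10.5 CPM in siSlu7 replicate 3 and 20.9 CPM in siGL2 replicate 1, and whether libraries were exchanged was not tested. The labels say only that the transfections were done in triplicate, so p-values measure the spread between these libraries, which may be technical. The line was checked against its markers: 12 of 12 hepatocyte genes were detected and tested, with a summed level of 20438 to 27496 CPM in siSlu7 and 20924 to 32366 CPM in siGL2. Summed markers of macrophages and leukocytes reached 32.0 to 40.7 CPM in siSlu7 and 34.9 to 47.1 CPM in siGL2, most of it LYZ, and 4 of their 12 genes, among them C1QA, C1QB and TYROBP, were at 0 in all 6 libraries. Fibroblast and endothelial markers summed to at most 4.86 CPM in any library, with COL3A1, LUM, KDR and TEK at 0. PTPRC, the leukocyte gene CD45, was called higher at 1.85, 2.03 and 1.49 CPM in siSlu7, against 0.377, 0.402 and 0.511 CPM in siGL2.

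The 61 genes together took a similar share of the counts in both groups: 0.357, 0.36 and 0.355% of the non-structural counts in siSlu7 libraries, against 0.336, 0.388 and 0.366% in siGL2 libraries. The siSlu7 values lay within the siGL2 range. In bulk RNA, fewer cells and less RNA per cell cannot be told apart, and every value is relative to the rest of the library. On the length-scaled TPM level, PSAP, the precursor of the saposins that help hydrolases reach sphingolipids, was the highest of the 61 genes, at 214 ± 33.8 TPM in siSlu7 and 160.0 ± 34.0 TPM in siGL2 (SD, n = 3 each). CTSB, a cysteine cathepsin, followed with 86.6 ± 12.6 TPM in siSlu7 and 82.7 ± 6.85 TPM in siGL2. From the second place on, neighbours in the order of the siGL2 means differed by less than their spread, with CTSB at 82.7 ± 6.85, ATP6V1F at 44.8 ± 53.6, ATP6V0E1 at 28.0 ± 5.07, ATP6V1A at 21.2 ± 14.6, CTSL at 20.4 ± 7.95 and ASAH1 at 20.3 ± 1.12 TPM in siGL2. Low on the same TPM scale in siGL2 stood CTSS at 1.93 ± 0.540, TFEB at 0.892 ± 0.243 and CTSK at 0.638 ± 0.244 TPM. The TPM scale moved upwards as a whole between the groups: over all 17109 tested genes the median log2(TPM + 1) difference was 0.35, and 41 of the 53 tested members had the higher mean TPM in siSlu7, against 23 by CPM. Differences between the groups are therefore given on CPM, and a TPM level is used only to order genes within a group.

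ATP6V1D was higher and NEU1 lower after SLU7 knockdown, and no other member passed the test. Over all genes 13.9% of 17109 were called, 5.93% higher and 7.93% lower, whereas 2 of the 53 tested members were called, which is 3.77%. Among the 12560 tested coding genes, from which the members come, 16.1% were called and 40.1% had groups that did not overlap. At an unadjusted p under 0.05 the members stood level with the background, with 17 of 53 (32.1%) against 32.0% of all genes. The groups did not overlap in 18 members (34.0%), 6 with siSlu7 above and 12 with siSlu7 below, against 36.6% of all genes, 17.8% above and 18.8% below. The median absolute log2 fold change was 0.33 in the members and 0.40 in all tested genes, and the median signed value was -0.11 in the members and -0.01 in all genes. On log2(TPM + 1) the members' median was 0.37 beside 0.35 for all genes, and with offsets for GC content and length it was 0.00.

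**Figure D1:**
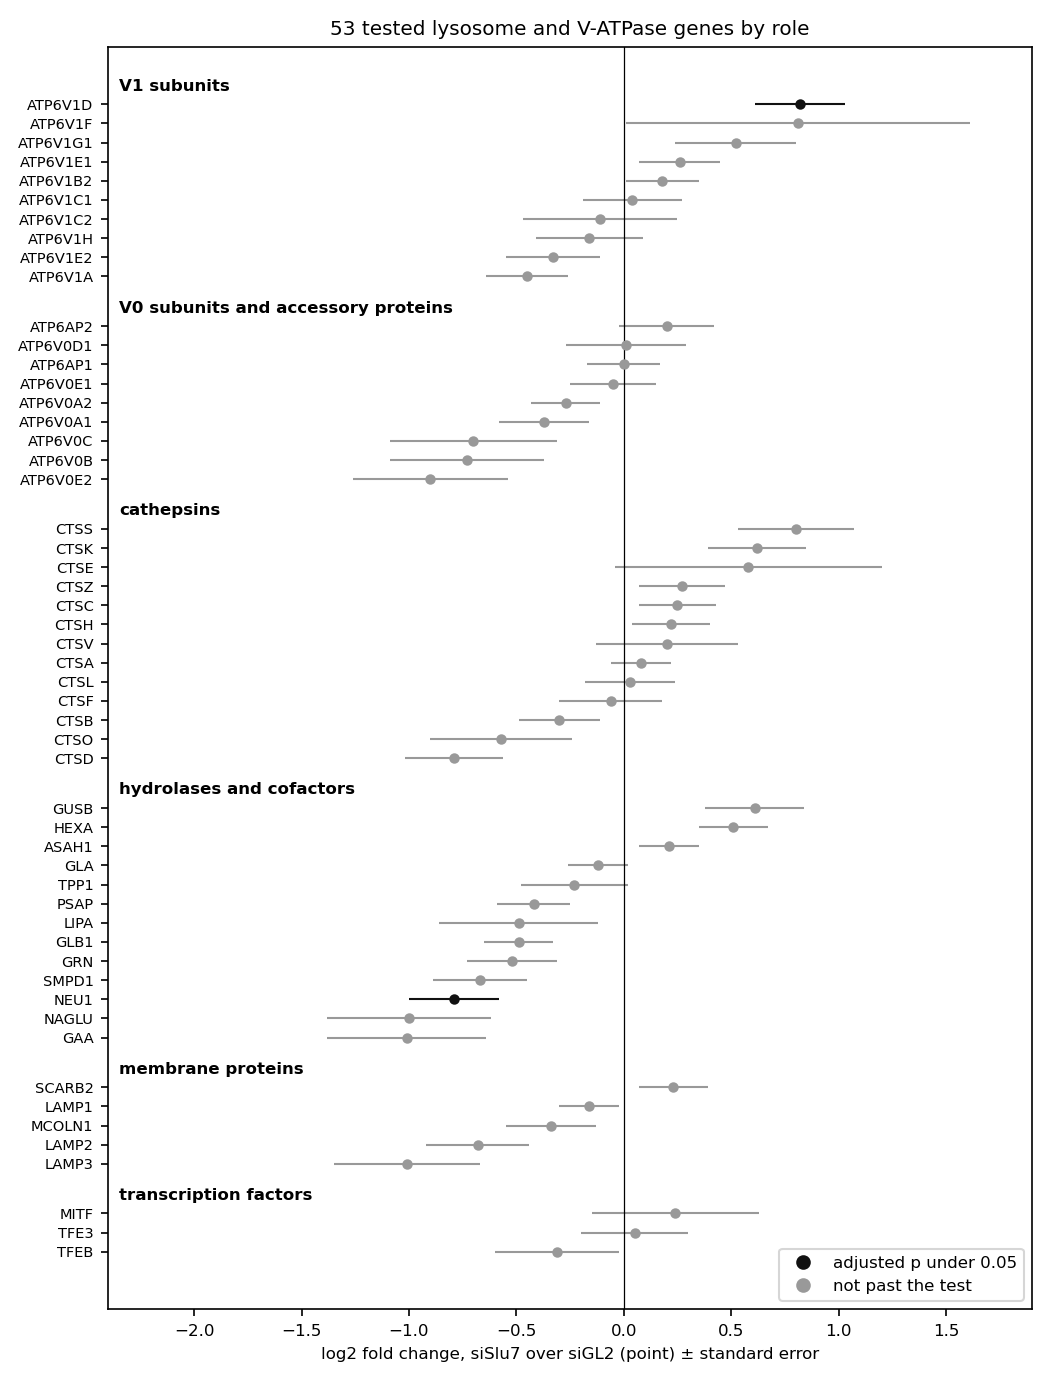
Log2 fold change of CPM, siSlu7 over siGL2, of the 53 tested members (point) with its standard error (line), sorted within 6 roles. ATP6V1D at 0.82 and NEU1 at -0.79, in black, are past the adjusted p of 0.05, and most hydrolases and V0 subunits lie left of 0 on this CPM scale. On log2(TPM + 1) the medians of these groups lie right of 0, at 0.22 and 0.26, but below the 0.35 of all genes.

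The call count rested strongly on siGL2 replicate 1. Without it 17 of 53 members passed (5 higher, 12 lower, 32.1%, where 25.3% of all genes were called), and without it and siSlu7 replicate 3 together 17 of 52 passed (5 higher, 12 lower, 32.7%, against 29.8% of all genes). Other scalings called other members. With offsets for transcript length GUSB was higher and CTSD lower (3.77%, against 4.91% of all genes). With offsets for GC content and length ATP6V1A and LAMP2 were lower (3.77%, against 10.5% of all genes). On log2(TPM + 1) 7 were higher and 0 lower, ATP6V1D among them and NEU1 not (13.2%, against 18.3% of all genes, where 95.2% of the calls were higher). Leaving out siSlu7 replicate 1, siSlu7 replicate 2, siGL2 replicate 2 or siGL2 replicate 3 left 0 members called. Of all genes 1.81, 0, 2.61 and 3.58% were called in these fits, in that order. Leaving out siSlu7 replicate 3 left 1 member (1.85%, against 5.64% of all genes). Of the 53 tested members, 9 (17%) had the highest library of both groups in siSlu7 replicate 3 and siGL2 replicate 1, against 22.7% of all genes. Another 15 (28.3%) had the lowest library of both groups there, against 20.6% of all genes. The part of these libraries in each result below was not tested beyond the fits without them.

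Among the V1 subunits, ATP6V1D was called. It encodes subunit D of the central stalk, which turns as ATP is split in the V1 head. It had 13.4, 13.3 and 9.53 CPM in siSlu7 libraries, against 6.91, 6.16 and 7.41 CPM in siGL2 libraries. All siSlu7 libraries lay above all siGL2 libraries. The log2 fold change was 0.82 (SE 0.21, edgeR adjusted p = 0.0374). Its direction was the same in every alternative fit, and on log2(TPM + 1), where the median gene moved by 0.35, its log2 fold change was 1.42. The adjusted p was above 0.05 without siSlu7 replicate 1 (0.126), siSlu7 replicate 2 (0.146), siGL2 replicate 2 (0.126) or siGL2 replicate 3 (0.0987), and with offsets for transcript length (0.0580) or GC content and length (0.0976). By annotated class, protein-coding transcripts of ATP6V1D held 57, 19 and 21 unscaled counts in siSlu7, against 32, 39 and 46 in siGL2. Retained-intron transcripts held 14, 32 and 21 in siSlu7, against 12, 1 and 5 in siGL2. Nonsense-mediated decay transcripts held 15, 19 and 10 in siSlu7, against 11, 5 and 5 in siGL2. The shares overlapped in each class, and a rise in the coding class was not shown. The gene (ENSG00000100554.12) lies at chr14:67294371-67360265 on the minus strand (GRCh38), and 6.33% of its exon bases overlap exons of EIF2S1 on the opposite strand, whose reads cannot be separated without a known strand setting.

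The other V1 subunits moved in both directions. Of the 10 tested, 6 had a positive and 4 a negative log2 fold change, from -0.45 to 0.82 with a median of 0.11, which became -0.08 with offsets for GC content and length. ATP6V1A, the catalytic subunit A that binds ATP, had 39.1, 37.0 and 33.4 CPM in siSlu7, against 64.0, 40.0 and 45.7 CPM in siGL2 (log2 fold change -0.45, SE 0.19, edgeR adjusted p = 0.150). The groups did not overlap, but the gap between 39.1 and 40.0 CPM was small. ATP6V1G1, a peripheral stalk subunit, had a log2 fold change of 0.52 (adjusted p = 0.225), and 7 pseudogenes named after it held 3.07 to 9.94% as many counts as the gene itself. ATP6V1B2, a form of the B subunit, had 0.18 and ATP6V1C1, a subunit that links V1 to V0, had 0.04. ATP6V1E1 and ATP6V1E2, forms of a peripheral stalk subunit, had 0.26 and -0.33, ATP6V1H, a regulatory subunit, -0.16, and ATP6V1C2 -0.11, all with overlapping groups.

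ATP6V1F differed widely between libraries of the same group. This subunit of the central stalk had 34.6, 73.2 and 177 CPM in siSlu7 libraries, against 126, 17.5 and 18.0 CPM in siGL2 libraries. The highest value of each group was in the library that stood apart, and the groups overlapped. The log2 fold change of 0.81 (SE 0.80, edgeR adjusted p = 0.522) became 2.41 (0.0156) without siGL2 replicate 1, and 1.59 (0.00282) without that library and siSlu7 replicate 3. Without siSlu7 replicate 3 alone it was near 0. Exons of KCP on the opposite strand cover 23.7% of the exon bases of ATP6V1F.

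V0 subunits and accessory proteins lay mostly below 0 on the CPM scale, and none was called. Of the 9 tested, 7 had a negative log2 fold change, with a median of -0.27. On log2(TPM + 1) 7 were positive with a median of 0.26, below the 0.35 of all genes. ATP6V0E2, a small membrane subunit, had 3.85, 4.06 and 2.43 CPM in siSlu7 libraries, against 4.15, 9.38 and 5.88 CPM in siGL2 libraries (log2 fold change -0.90, SE 0.36, edgeR adjusted p = 0.127). The groups did not overlap, with siSlu7 replicate 2 close to siGL2 replicate 1. ATP6V0B, a proteolipid of the rotating c-ring, had 12.5, 11.6 and 7.66 CPM in siSlu7, against 9.30, 26.5 and 17.3 CPM in siGL2 (-0.73, SE 0.36, adjusted p = 0.198). Here siGL2 replicate 1 lay below 2 of the siSlu7 libraries. Without siGL2 replicate 1 the log2 fold change was -1.14 for ATP6V0E2 (adjusted p = 0.0317) and -1.04 for ATP6V0B (0.0185). ATP6V0C, the main proteolipid of the c-ring, had a log2 fold change of -0.70 (adjusted p = 0.257), and 57.5% of its exon bases lie in exons of the annotated gene AC093525.2 on the same strand. ATP6V0A1 and ATP6V0A2, isoforms of the a subunit that forms the proton path, had -0.37 and -0.27. ATP6V0E1 had -0.05, ATP6V0D1, which joins the c-ring to the stalk, 0.01, and ATP6AP2, an accessory protein also known as the (pro)renin receptor, 0.20.

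Cathepsins were divided. Of the 13 tested, 9 had a positive and 4 a negative log2 fold change, and the median of 0.20 was 0.05 with offsets for transcript length, equal to the median of all genes there. CTSD, the main aspartic protease of lysosomes, had 15.1, 12.2 and 12.3 CPM in siSlu7 libraries, against 15.7, 26.5 and 26.2 CPM in siGL2 libraries. All siSlu7 libraries lay below all siGL2 libraries, and siGL2 replicate 1 came closest to them. Its log2 fold change of -0.79 (SE 0.23) had an edgeR adjusted p of 0.0559, and it was past 0.05 with DESeq2 (0.0387) and without siGL2 replicate 1 (-1.0, 0.00466). Exons of the annotated gene AC068580.4 on the same strand cover 41.7% of the exon bases of CTSD, so reads may be split between them.

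CTSS lay on the other side. This cysteine protease, known for its work on the invariant chain in antigen-presenting cells, had 10.0, 6.27 and 6.91 CPM in siSlu7 libraries, against 5.40, 3.88 and 4.09 CPM in siGL2 libraries. The groups did not overlap (log2 fold change 0.80, SE 0.27, edgeR adjusted p = 0.0820), and without siGL2 replicate 1 the adjusted p was 0.0392. Leukocyte markers, PTPRC among them, stand with the library values above, and their part in CTSS was not tested. CTSK, a collagen-degrading cathepsin best known from osteoclasts, had 0.62 (adjusted p = 0.100), also without overlap, as had CTSH, an aminopeptidase, at 0.22. CTSB, the highest cathepsin by TPM, had -0.30, and CTSL 0.03. CTSA, the protective protein that holds NEU1 and GLB1 in a complex, had 0.08, with 61.7 ± 0.884 CPM in siSlu7 and 58.4 ± 6.83 CPM in siGL2. CTSZ, CTSC, CTSV, CTSF, CTSO and CTSE lay between -0.57 and 0.58, each with an adjusted p of at least 0.272.

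NEU1 was the hydrolase that was called. It encodes the lysosomal sialidase, which removes sialic acid from glycoproteins and glycolipids. NEU1 had 51.1, 51.2 and 42.0 CPM in siSlu7 libraries, against 62.2, 106 and 82.0 CPM in siGL2 libraries. All siSlu7 libraries lay below all siGL2 libraries, and the lowest library of each group was the one that stood apart. The log2 fold change was -0.79 (SE 0.21, edgeR adjusted p = 0.0374). Its direction was the same in every alternative, with adjusted p-values from 0.00217 without both libraries that stood apart to 0.303 on log2(TPM + 1). Without siSlu7 replicate 1, 2 or 3, or siGL2 replicate 2 or 3, the adjusted p lay between 0.0972 and 0.126, and it was 0.0654 with offsets for transcript length and 0.0702 with offsets for GC content and length. NEU1 (ENSG00000204386.12) lies at chr6:31857659-31862906 on the minus strand (GRCh38). The transcript with most of the difference was NEU1-208, annotated as a target of nonsense-mediated decay, with 79.2, 93.8 and 90.1 estimated counts in siSlu7 and 219, 381 and 352 in siGL2 (adjusted p = 0.114 over all transcripts).

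Most of the other hydrolases lay below 0 on the CPM scale without passing the test. Of 13 hydrolases and cofactors, 10 had a negative log2 fold change and the median was -0.49, while on log2(TPM + 1) 10 were positive with a median of 0.22, below the 0.35 of all genes. SMPD1, acid sphingomyelinase, had 6.77, 6.45 and 4.86 CPM in siSlu7, against 10.3, 9.78 and 8.82 CPM in siGL2 (-0.67, adjusted p = 0.0698). GLB1, acid beta-galactosidase, had 16.5, 13.5 and 16.4 CPM in siSlu7, against 21.4, 21.6 and 22.2 CPM in siGL2 (-0.49, adjusted p = 0.0754). In both genes the groups did not overlap, though for GLB1 the sign turned with offsets for transcript length (0.05) and on log2(TPM + 1) (0.49). GAA, the acid glucosidase of glycogen, had 5.38, 3.50 and 3.18 CPM in siSlu7, against 4.52, 11.1 and 8.95 CPM in siGL2 (-1.01, adjusted p = 0.100), and NAGLU, an enzyme of heparan sulfate breakdown, had 8.46, 5.35 and 6.54 CPM in siSlu7, against 6.53, 19.7 and 14.8 CPM in siGL2 (-1.0, adjusted p = 0.111, and 0.02 on log2(TPM + 1)). Both overlapped only through siGL2 replicate 1, and without that library their adjusted p-values were 0.0115 and 0.00571. PSAP had -0.42 (adjusted p = 0.123) and GRN, the progranulin precursor, -0.52 (0.122), both positive on log2(TPM + 1) (0.43 and 0.11), and LIPA, acid lipase, -0.49 (0.398).

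Higher values were seen for 3 of the 13. HEXA, the alpha subunit of beta-hexosaminidase, had 31.5, 34.7 and 39.8 CPM in siSlu7, against 22.1, 27.5 and 25 CPM in siGL2, with no overlap (0.51, SE 0.16, edgeR adjusted p = 0.0704). GUSB, beta-glucuronidase, had 22.3, 18.8 and 17.6 CPM in siSlu7, against 9.05, 14.6 and 15 CPM in siGL2 (0.61, adjusted p = 0.105), also with no overlap. Its value is uncertain, since 17 pseudogenes named after GUSB held 386, 293 and 309 counts in siSlu7 and 424, 568 and 607 in siGL2, between 266 and 589% of the gene's own counts. ASAH1, acid ceramidase, had 0.21. GLA, alpha-galactosidase A, and TPP1, a tripeptidyl peptidase, had -0.12 and -0.23.

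The membrane proteins also lay mostly below 0. Of 5, 4 were negative with a median of -0.34. The median was 0.19 on log2(TPM + 1), below the 0.35 of all genes there, and 0.01 with offsets for GC content and length. LAMP3, the inducible member of the LAMP family, had 5.23, 2.76 and 3.18 CPM in siSlu7, against 5.15, 10.0 and 7.67 CPM in siGL2 (-1.01, SE 0.34, edgeR adjusted p = 0.0810). LAMP2, a major glycoprotein of the lysosomal membrane with a part in autophagy, had 46.6, 39.4 and 25.6 CPM in siSlu7, against 46.7, 69.4 and 63.1 CPM in siGL2 (-0.68, SE 0.24, adjusted p = 0.0899, and 0.05 on log2(TPM + 1)). LAMP3 overlapped through siSlu7 replicate 1 and siGL2 replicate 1, and in LAMP2 the same libraries were nearly level. LAMP1, its close relative, had -0.16, MCOLN1, the calcium channel of the lysosome, -0.34, and SCARB2, the receptor that carries glucocerebrosidase to lysosomes, 0.23.

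**Figure D2:**
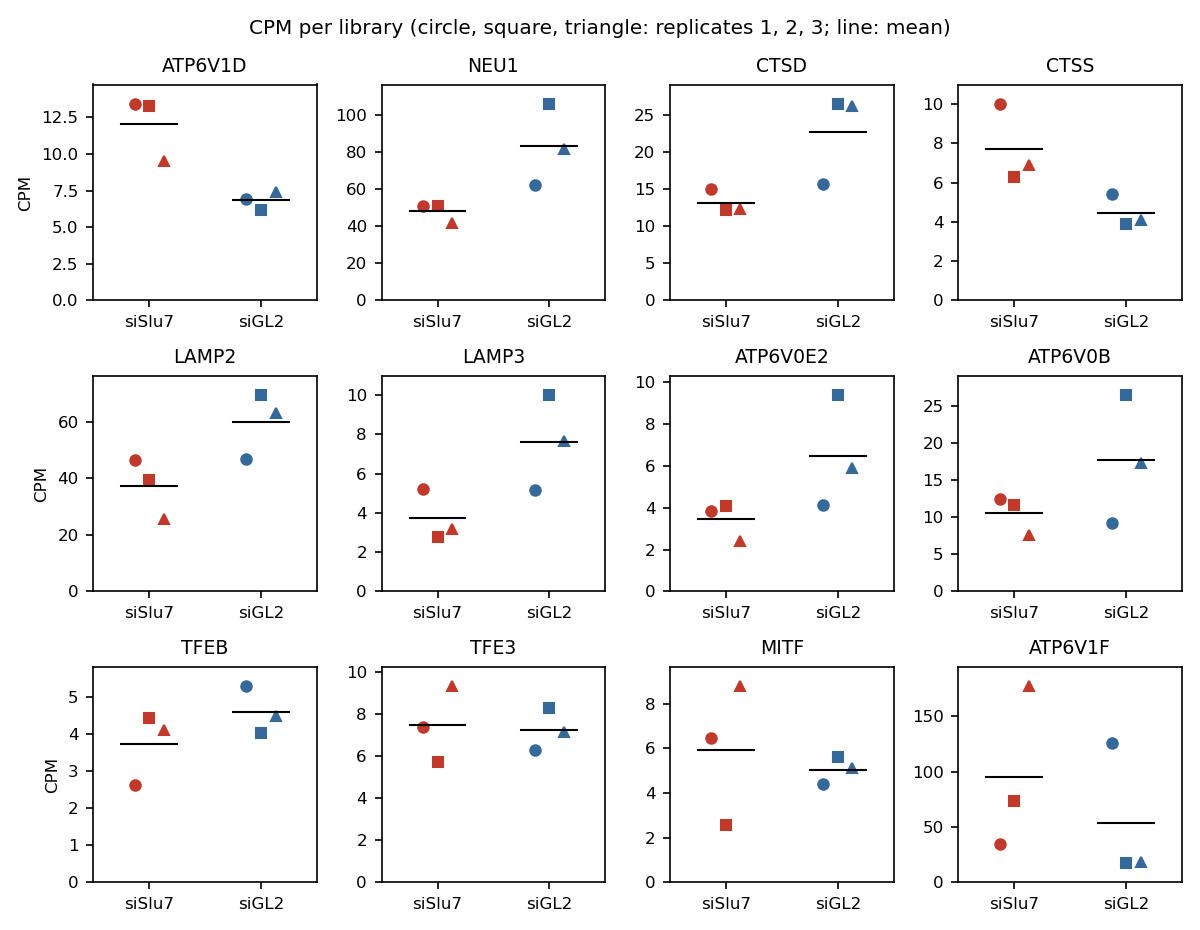
CPM per library of 12 members, siSlu7 left and siGL2 right in each panel, with the mean as a line and a symbol for each replicate number; each vertical axis starts at 0 and has its own range. ATP6V1D lies above and NEU1 below siGL2 in all libraries, while in ATP6V1F the high values are siSlu7 replicate 3 (177 CPM) and siGL2 replicate 1 (126 CPM).

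None of the transcription factors differed beyond the spread of the libraries. TFEB had 2.61, 4.42 and 4.11 CPM in siSlu7, against 5.28, 4.02 and 4.47 CPM in siGL2 (log2 fold change -0.31, SE 0.29, edgeR adjusted p = 0.501). TFE3 had 7.38, 5.71 and 9.34 CPM in siSlu7, against 6.28, 8.30 and 7.16 CPM in siGL2 (0.05, SE 0.25, adjusted p = 0.920). MITF had 6.46, 2.58 and 8.78 CPM in siSlu7, against 4.4, 5.63 and 5.11 CPM in siGL2 (0.24, SE 0.39, adjusted p = 0.713). The groups overlapped in all 3, and each changed its sign in at least 1 alternative, so no direction is given. At 2.58 to 9.34 CPM these genes are low, and a small change in them could not be seen at this depth.

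The promoters of the called members are shown because the E-box core CACGTG, the sequence this factor family binds, is found in one of them. They are the 250 bases before the transcription start in RefSeq (GRCh38.p14), written 5′ to 3′ on the strand of the gene, with CACGTG in capitals.
NEU1, chr6:31862822-31863071, minus strand: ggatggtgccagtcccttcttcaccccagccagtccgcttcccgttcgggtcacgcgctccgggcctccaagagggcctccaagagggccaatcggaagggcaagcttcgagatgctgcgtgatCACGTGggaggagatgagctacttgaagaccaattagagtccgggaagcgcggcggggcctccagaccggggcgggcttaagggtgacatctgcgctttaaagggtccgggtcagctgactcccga
ATP6V1D, chr14:67359805-67360054, minus strand: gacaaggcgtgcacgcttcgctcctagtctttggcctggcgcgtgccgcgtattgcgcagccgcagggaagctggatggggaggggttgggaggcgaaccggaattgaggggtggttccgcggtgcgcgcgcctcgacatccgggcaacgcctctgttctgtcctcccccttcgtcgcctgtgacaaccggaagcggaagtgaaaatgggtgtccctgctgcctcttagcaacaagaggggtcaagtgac
The longest form searched, a palindrome of 10 bases, is shown in capitals in the members that hold it, none of which was called.
ATP6V1G1, chr9:114587699-114587728, plus strand: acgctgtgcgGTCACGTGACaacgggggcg
GAA, chr17:80101493-80101522, plus strand: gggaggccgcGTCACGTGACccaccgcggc
MCOLN1, chr19:7522598-7522627, plus strand: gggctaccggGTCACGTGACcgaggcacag

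In NEU1 the E-box core began 126 bases before the start, and the ATP6V1D window held none. Of the 61 members, 42 had a promoter in the RefSeq table, a window of 250 bases before and 50 after the start, searched on both strands. CACGTG was found in 11 of the 42 (26.2%), against 8.77% of the promoters of all 27305 genes in the table. That table was not limited to coding genes, as the members were, and no share over coding genes was taken. The longer forms, each of which holds CACGTG, were found in 8 (GTCACGTG, 19% against 2.93%), 6 (TCACGTGA, 14.3% against 1.18%) and 3 (the 10-base palindrome, 7.14% against 0.421%). Besides NEU1 the genes with CACGTG were ATP6V0B, ATP6V0D1, ATP6V0E2, ATP6V1G1, CTSA, CTSD, CTSF, GAA, LAMP1 and MCOLN1. Their log2 fold changes ran from -1.01 in GAA to 0.52 in ATP6V1G1. A match is a description of the sequence and no evidence of binding.

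At the level of transcripts no member passed a test of abundance, nor did any transcript of the series: 0 of 43128 were called by edgeR (background 0%), with 16.1% at an unadjusted p under 0.05. Of 213 tested member transcripts 37 had such a p (17.4%). The smallest p-values belonged to SCARB2-213, ASAH1-238 and SCARB2-212. SCARB2-213, a long retained-intron transcript, had 30.2, 18.2 and 23.6 estimated counts in siSlu7 libraries, against 0.00399, 0.487 and 0 in siGL2 libraries (adjusted p = 0.0994). SCARB2-212, a decay transcript of the same gene, had 90.5, 54.4 and 71.5 estimated counts in siSlu7, against 223, 189.8 and 213 in siGL2 (log2 fold change -1.24, SE 0.23, adjusted p = 0.108). ASAH1-238, a decay transcript, had 0.00887, 0 and 0 in siSlu7, against 22.3, 20.3 and 17.8 in siGL2 (adjusted p = 0.108). In each of these the groups did not overlap, while the totals of SCARB2 and ASAH1 did. Values near 0 may come from the split of reads between similar transcripts, which was not tested. The uncertainty of that split was not modelled. In edgeR's diffSpliceDGE test of transcript usage 257 of 8869 genes were called (2.90%) and 0 of 43 members. At an unadjusted p under 0.05 there were 3 of these members, namely SCARB2 (adjusted p = 0.185 by edgeR), ATP6V0A1 (0.242) and ATP6AP1 (0.352).

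When transcripts were summed by class, ATP6AP1 was the member called. ATP6AP1 encodes Ac45, an accessory protein of V0 that takes part in its assembly, and its total did not move, with 22.7 ± 2.55 CPM in siSlu7 and 22.7 ± 3.0 CPM in siGL2 (SD, n = 3 each). Its protein-coding transcripts held 20, 14.3 and 11.6% of the gene's counts in siSlu7 libraries, against 24.2, 57.0 and 64.0% in siGL2 libraries. Its decay transcripts held 64.4, 77.3 and 78.3% in siSlu7, against 36.9, 30.6 and 29.8% in siGL2. Neither class overlapped between the groups, although siGL2 replicate 1, at 24.2% coding, lay nearer to siSlu7 than to the other siGL2 libraries. The usage of the coding class, relative to the rest of the gene, had a log2 fold change of -1.28 (edgeR diffSpliceDGE, adjusted p = 0.0442), and that of the decay class 0.74 (adjusted p = 0.238). Over all genes 178 of 16882 classes were called (1.05%), and 1 of 105 member classes. The adjusted p of the coding class ranged from 0.00562 without siGL2 replicate 1 to 0.263 with no filter, at log2 values between -1.44 and -1.14. It was above 0.05 without any one of siSlu7 replicate 1 (0.114), 2 (0.226) or 3 (0.261), or siGL2 replicate 2 (0.152) or 3 (0.210). The next smallest p-values were those of the coding classes of CTSA and ATP6V1H, neither of them called. CTSA had a usage log2 of -1.34 (edgeR adjusted p = 0.0831). It held 23, 26 and 6 unscaled counts in siSlu7, against 67, 161 and 35 in siGL2, and its shares overlapped. ATP6V1H ran the other way, at 1.38 (adjusted p = 0.141). Its coding share was 34.1, 48.7 and 30.8% in siSlu7, against 9.14, 5.81 and 12.9% in siGL2, without overlap.

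**Figure D3:**
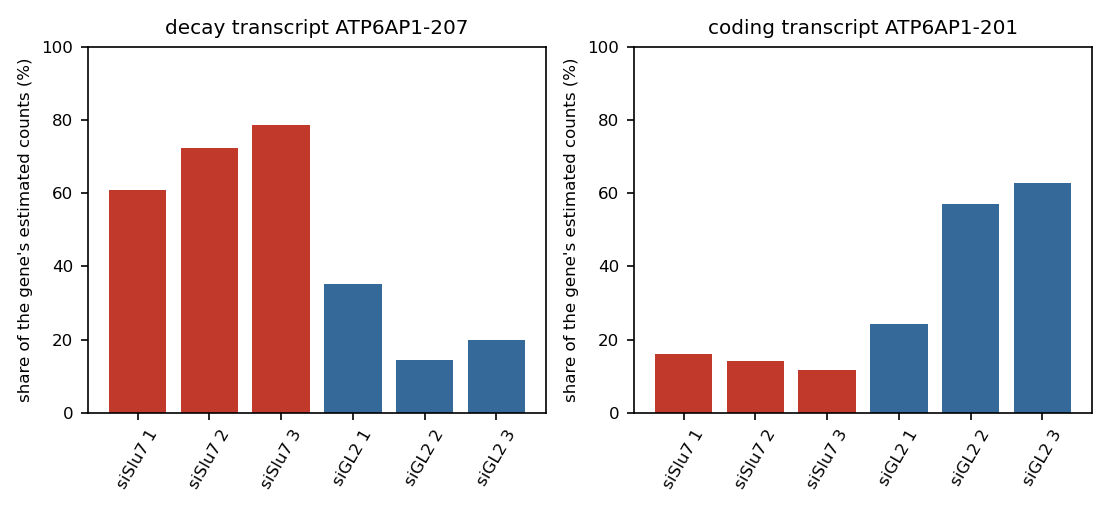
Share of the estimated counts of ATP6AP1, in percent, held by the decay transcript ATP6AP1-207 (left panel) and the coding transcript ATP6AP1-201 (right panel), a bar per library, siSlu7 in red and siGL2 in blue. ATP6AP1-207 held 60.8 to 78.6% in siSlu7 and 14.5 to 35.3% in siGL2, and ATP6AP1-201 held 11.8 to 16.1% in siSlu7 and 24.4 to 62.8% in siGL2.

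A pair of transcripts carried the difference in ATP6AP1. ATP6AP1-207, a decay transcript of 4515 bases, had 82.2, 85.7 and 108 estimated counts in siSlu7, against 55.4, 27.7 and 35.3 in siGL2. ATP6AP1-201, the coding transcript, had 21.9, 16.9 and 16.1 in siSlu7, against 38.2, 109.6 and 112 in siGL2. These are low counts, and the groups did not overlap in either. The transcripts part at the end of exon 2 (chrX:154429048-154429174 in ATP6AP1-201, plus strand, GRCh38, GENCODE 29). In ATP6AP1-207 the exon runs on for 2483 bases to 154431657, and an annotated stop codon begins in that stretch at 154429289. The next exon begins at 154431830 in both. The junction is shown as the last 15 bases of the shared exon 2 in lower case and the 15 bases that follow in each transcript in capitals.
ATP6AP1-207: ttcctgcaggacaagGTGCGCCCGCCCCAG
ATP6AP1-201: ttcctgcaggacaagCTGAGCATTGAGGAT
In ATP6AP1-207 the bases after the exon are intron sequence that opens with GTG, and in ATP6AP1-201 they are the start of exon 3. ATP6AP1-201 stands in the files in a later version than in GENCODE 29, with 2054 bases in the files and 2099 in GENCODE 29.

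Retained-intron transcripts took a larger part of the members' counts after knockdown, as they did over all coding genes. In the 61 members they held 19.0, 16.6 and 15.1% of the counts in siSlu7 libraries, against 12.7, 12 and 13.5% in siGL2 libraries, a mean of 16.9 ± 1.94% and 12.8 ± 0.778% (SD, n = 3 each). Over all coding genes the means were 13.4 ± 0.125% in siSlu7 and 10.0 ± 0.371% in siGL2. Groups did not overlap in either. Other classes did not run alike. The members' protein-coding share was 70.7 ± 2.74% in siSlu7 and 71.2 ± 4.75% in siGL2, against 72.2 ± 0.686% and 76.9 ± 1.35% over all coding genes. Their decay share was 9.71 ± 1.18% in siSlu7 and 13.6 ± 4.41% in siGL2, against 8.09 ± 0.504% and 7.67 ± 0.650%. CTSB alone held 268, 297 and 104 unscaled decay counts in siSlu7, against 345, 1166 and 868 in siGL2. It weighs heavily in the members' decay share, and no share was taken without it. The members' groups overlapped in both classes. Decay usage was positive in 8 of 20 tested member classes (40%), against 55.2% over all genes. Of 31 members with a tested retained-intron class, 14 had every siSlu7 share above every siGL2 share (45.2%) and 1, ATP6V0A2, had every share below (3.23%), against 29.6% above and 2.79% below over all genes. None of the 31 passed the class test, in which 64 of 4407 retained-intron classes of all genes did, 63 of them higher. Whether members differ from other genes here was not tested.

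Among V-ATPase subunits, the retained-intron share of ATP6V0B was 40.7, 54.0 and 65.9% in siSlu7, against 13.5, 6.06 and 20% in siGL2 (usage log2 1.51, edgeR adjusted p = 0.175). ATP6V0D1 had 53.1, 57.5 and 52.5% in siSlu7, against 25.4, 17.8 and 19.2% in siGL2 (0.99, adjusted p = 0.250). ATP6V1B2 had 45.9, 38.8 and 51.0% in siSlu7, against 25.5, 23.6 and 20.8% in siGL2 (0.69, adjusted p = 0.344). In these subunits the siSlu7 shares lay clear of the siGL2 shares, at counts of 27 to 83 per library in siSlu7 and 10 to 44 in siGL2. CTSD had 45.9, 53 and 75.8% in siSlu7, against 20, 23.2 and 27.8% in siGL2 (0.85, adjusted p = 0.419). HEXA had 40.5, 43.3 and 47.7% in siSlu7, against 26.3, 18.0 and 29.4% in siGL2 (0.59, adjusted p = 0.655). CTSD with a lower total and HEXA with a higher one thus had the same order of groups. ATP6V0A2 had 32.0, 27.2 and 30.6% in siSlu7, against 51.7, 42.9 and 36.4% in siGL2 (-0.38, adjusted p = 0.752). ATP6V1D, higher in total, had 16.1, 45.1 and 40.4% in siSlu7, against 21.8, 2.17 and 8.62% in siGL2, and its groups overlapped through siSlu7 replicate 1 and siGL2 replicate 1.

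**Figure D4:**
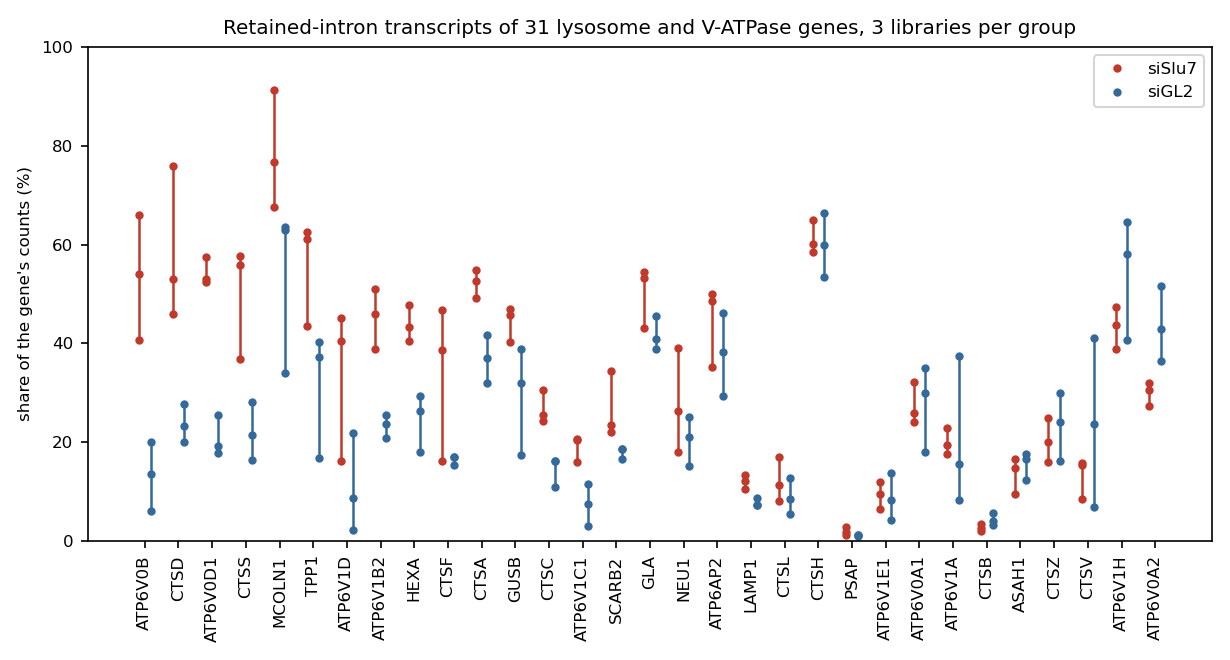
Share of each gene's counts, in percent, held by its retained-intron transcripts in the 31 members with that class tested, a point per library, siSlu7 in red to the left of siGL2 in blue, with a line from the lowest to the highest library, sorted by the difference of the group means. The siSlu7 points lie above all siGL2 points in 14 genes and below them in ATP6V0A2.

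Beyond the 61 genes, other lysosomal genes were read from the same edgeR fit. Of 33 tested further hydrolases and cofactors, 6 were lower and 0 higher (18.2% called, against 13.9% of all genes), with a median log2 fold change of -0.51 beside -0.01 for all genes and 27 of 33 negative. On log2(TPM + 1) that median was -0.03 beside 0.35 for all genes, with 15 of the 33 positive, 2 called higher and 0 lower, and with offsets for transcript length 1 was called, lower. PLBD2, a phospholipase B-like protein, fell to 14.8, 16.4 and 12.5 CPM in siSlu7, against 21.7, 35.9 and 30.4 CPM in siGL2 (-1.01, adjusted p = 0.0218), and its sign turned on log2(TPM + 1) (0.44). HGSNAT, which acetylates heparan sulfate, fell by 0.67 on the log2 scale (adjusted p = 0.0308).

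Of 24 tested further lysosomal membrane proteins, 5 were lower and 0 higher (20.8%), with a median of -0.56 and 21 of 24 negative. On log2(TPM + 1) the median was 0.12 beside 0.35 for all genes, with 1 called higher and 0 lower, and with offsets for transcript length 1 was called, lower. ABCA2, a lipid transporter of the ABC family, fell to 14, 11.4 and 12.3 CPM in siSlu7, against 28.5, 59.1 and 39.7 CPM in siGL2 (-1.75, SE 0.27, adjusted p = 0.00988). TPCN1, a cation channel of endosomes and lysosomes, fell by 1.30 (adjusted p = 0.0118) and CLCN7, the chloride-proton exchanger of lysosomes, by 0.96 (0.0166), with CLCN7 at 0.20 on log2(TPM + 1).

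The remaining lists had calls in both directions or few calls. Of 30 tested core autophagy genes, 4 were higher and 5 lower (30% called). ATG16L1, which guides LC3 lipidation, rose to 87.5, 99.0 and 87.6 CPM in siSlu7, against 50.1, 43.0 and 42.9 CPM in siGL2 (1.01, SE 0.14, adjusted p = 0.00923), and ATG12, part of the same conjugate, rose by 0.98 (0.0102). GABARAPL1, a protein of the LC3 family, fell to 6.0, 5.71 and 6.91 CPM in siSlu7, against 14.4, 15.9 and 13.7 CPM in siGL2 (-1.24, adjusted p = 0.00988). Of 11 genes of V-ATPase assembly and regulation, TMEM199, an assembly factor, was higher (0.76, adjusted p = 0.0299) and ROGDI, a subunit of the RAVE-like complex that joins V1 to V0, lower (-1.18, 0.0402). Of 23 genes of mTORC1 and the Rag-Ragulator complex, which senses nutrients at the lysosome, 3 were lower, namely MLST8 (-0.88, adjusted p = 0.0231), MTOR (-0.64, 0.0262) and LAMTOR4 (-0.72, 0.0472), with MTOR at 0.10 on log2(TPM + 1), where 4 of the list were called higher and 0 lower, while with offsets for transcript length 0 were called. In mannose 6-phosphate sorting 1 of 15 was lower, AP1B1, a subunit of the AP-1 adaptor (-0.63, adjusted p = 0.0265). In lysosome tethering and positioning 1 of 23 was lower, BORCS6, a subunit of BORC (-1.85, adjusted p = 0.0228), at 1.23, 0.922 and 1.68 CPM in siSlu7 and 3.14, 6.56 and 4.22 CPM in siGL2. Over these 7 lists 27 genes were called, with shares per list from 4.35 to 30%, in a fit that called 13.9% of all genes. With offsets for transcript length 6 were, where 4.91% of all genes were called. Without siGL2 replicate 1 there were 55, where 25.3% of all genes were called.

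**Figure D5:**
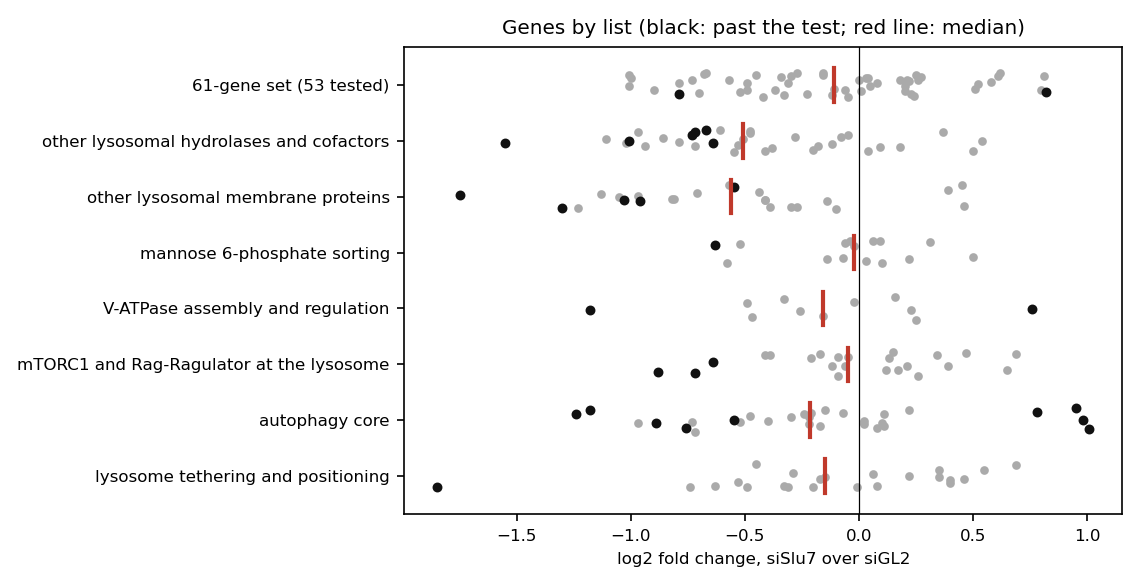
Log2 fold change of CPM, siSlu7 over siGL2, of each tested gene (point) in the 61-gene set and in 7 other lists, with called genes in black and the median of each list as a red line. The medians of the other lysosomal hydrolases (-0.51) and membrane proteins (-0.56) lie farthest left on this scale. On log2(TPM + 1) they are -0.03 and 0.12, beside 0.35 for all genes.

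The 8 members that did not pass the filter were low or absent. CTSG, a protease of neutrophils, and ATP6V1G3, a kidney isoform, had 0 counts in all 6 libraries. ATP6V0A4 and ATP6V1B1, also known from kidney, reached at most 0.134 and 0.628 CPM in any library. ATP6V1G2, a neuronal isoform, and ATP6V0D2, known from osteoclasts and macrophages, reached 1.29 and 2.95 CPM at most. CTSW, a cathepsin of cytotoxic lymphocytes, had 0.769, 2.03 and 3.36 CPM in siSlu7 libraries, against 0.251, 1.34 and 0.639 CPM in siGL2 libraries, which overlapped. ATP6V1FNB is a neighbour of ATP6V1F that shares its name and is not a subunit of the pump, and it had at most 2.80 CPM.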

How the data were processed

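RNA-seq of 6 libraries of PLC/PRF/5 cells was read from 1 abundance table per library. Per the file headers, each table lists transcripts with their length, effective length, estimated counts and TPM (a level scaled by effective length and library), which the authors deposited. The submitters' processing notes name FastQC 0.11.8, Trimmomatic 0.38, kallisto 0.46.1, sleuth 0.30.0 and GRCh38, with no role or order; which annotation release and strand setting were used is not given in the sources used here. TRIzol extracts went into the ScriptSeq mRNA-Seq kit, per the labels' protocols.

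Estimated counts of 234485 transcripts were summed over 60607 genes and rounded. Genes were kept by edgeR's filterByExpr (minimum count 10, minimum total 15) and scaled by TMM, and siSlu7 was tested against siGL2 with edgeR 4.0.16 (quasi-likelihood, Benjamini-Hochberg adjusted over all genes tested, threshold 0.05, R 4.3.3). The same test was run on transcripts, and diffSpliceDGE on transcripts and on summed transcript classes, for genes with at least 2 of them. The uncertainty of splitting reads between transcripts was not modelled. Alternatives used DESeq2 1.42.0, limma 3.58.1 on log2(TPM + 1), and offsets for transcript length and for GC content and length (GENCODE 29, 97.6% of the genes tested). The tests were checked on simulated data. Overlapping exons and the ATP6AP1 exons come from GENCODE 29, and promoters from RefSeq (GRCh38.p14).

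Deviations of same-numbered libraries correlated at -0.41, 0.11 and -0.37, so no pairing by replicate number was seen. Taken from means of 3 libraries, these correlations cannot exclude that same-numbered libraries were prepared together. The members and lists were chosen with earlier results of these data known. Values per library were set to be given for called members, for TFEB, TFE3 and MITF, for the 2 members with the smallest p in a role with no call, for member transcripts and classes past a test or the 3 with the smallest p, and for up to 3 called genes of a list. Other members given per library, and the promoters other than that of NEU1, were chosen after their values were seen. A gene that this rule names in a list is not reported here.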

Additional observations from a re-analysis of the deposited data

How the results depend on the processing

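Of the 61 genes, 2 were called, ATP6V1D higher and NEU1 lower, and both were called with RLE size factors and a stricter filter, and beside CTSD with DESeq2 and without structural RNA. With length offsets 2 others were called (GUSB higher, CTSD lower), and with GC offsets another 2 (ATP6V1A and LAMP2, both lower). The count was 7 with no filter (1 higher, 6 lower, 11.9%, against 8.23% of all genes). With limma on log2(TPM + 1) it was also 7 (7 higher, 0 lower, 13.2%, against 18.3% of all genes). It was 17 without siGL2 replicate 1 and siSlu7 replicate 3 together, and 0 to 17 leaving out a library each. The other lists had 27 calls, with 6 under length offsets, 66 without that pair and 0 to 55 leaving out a library each. Usage calls of members numbered 0 of 43, where 2.90% of all genes were called. They numbered 5 of 45 without that pair (9.36% of all genes) and 0 to 2 leaving out a library each (1.57 to 8.70%). Class calls of members numbered 1 of 105, where 1.05% of all classes were called. They numbered 0 with no filter (0.470% of all classes), 6 of 108 without that pair (3.32%) and 0 to 5 leaving out a library each (0.208 to 2.98%). With the replicate block, 0 members, 0 list genes and 0 classes were called, and the adjusted p of SLU7 was 0.0663. Whether same-numbered libraries belong together is not known. Over all genes 2371 were called, 5248 without that pair, 840 with length offsets, 0 with the replicate block and 0 to 4457 leaving out a library each. The share of calls that were higher was 42.8%, 55% with length offsets and 95.2% on log2(TPM + 1). By TPM 41 members had the higher mean in siSlu7, and 23 by CPM.

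Of 800 single values over settings, 604 kept sign and side, 130 lost and 38 gained a call, and 28 changed sign. On log2(TPM + 1) the sign turned for GLB1 (0.49), NAGLU (0.02), GRN (0.11), PSAP (0.43), LAMP2 (0.05), ATP6V1A (0.09), TFEB (0.10), ATP6V0B (0.05), ATP6AP1 (0.01), PLBD2 (0.44), CLCN7 (0.20) and MTOR (0.10). The median of all genes on that scale was 0.35, and of these genes only GLB1, PSAP and PLBD2 lay above it. The sign turned with length offsets for GLB1 (0.05), with GC offsets for GRN (0.00), TFEB (0.12) and ATP6AP1 (0.29), and with the stricter filter and the replicate block for ATP6AP1 (0.00 in both). Without that pair TFE3 was -0.23 and MITF -0.21. Leaving out a library each gave -0.14 to 0.20 for TFE3, -0.14 to 0.59 for MITF, -0.10 to 0.08 for ATP6AP1, -0.00 to 2.41 for ATP6V1F and -1.16 to 0.05 for the decay class of ASAH1. The causes were not tested. Members under about 5 CPM rest on few counts, most of all in the shallower siSlu7 libraries.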
